A study of Mus musculus with 39 samples.

Results

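Gene expression over time was examined in brown fat of C57BL/6J mice that received a high fat, high sucrose diet together with KAL-1, a botanical formulation, in doses of 5 µg (HF5), 20 µg (HF20) and 75 µg (HF75). The 18 Agilent arrays of these 3 doses were taken, of 39 arrays in the series: 9 late arrays (Weeks 12, 15 and 18) were set against 9 early arrays (Weeks 3, 6 and 9), with the dose as a block. Mice were weaned at 3 to 4 weeks of age, each diet group had 30 animals, and 5 per group were taken every 3 weeks. The labels describe the RNA as that of infiltrating macrophages of brown fat, that is, of stromal vascular cells (SVCs), and each array holds 1 diet at 1 week. All 18 arrays share the high fat, high sucrose diet, with 60% of calories from fat. The 6 arrays of that diet alone (HFC) and the 5 of the low fat diet (LFC, 10% of calories from fat) of the same weeks were used for comparison.

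The weeks of a period and the doses stand in for replicates, so p-values measure the spread between arrays. No source used here says whether the 5 animals were pooled. For the HF20 array of Week 12 the title and the source name give HF20, while its diet entry names the high fat diet alone, and it was kept as HF20. The levels given below are log2 values of the spot signal minus the log2 of the array's 75th percentile, so a level of 0 is the 75th percentile of that array and a difference of 1 is a factor of 2. A probe is called well above background where the scanner software says so.

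Brown fat burns fuel to make heat through the mitochondrial uncoupling protein Ucp1. Its stromal vascular fraction holds the cells between the fat cells: macrophages and other leukocytes, endothelial cells, and fibroblasts and preadipocytes that lay down the collagen matrix. High fat feeding is known for drawing immune cells into fat and for remodelling its matrix, and KAL was given together with that diet.

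The arrays differed widely in brightness, and 6 of them stood apart. The 75th percentile of the signal ran from 18.1 (HF20 Week 9) to 3974 (HF20 Week 15) intensity units, with a median of 81.1, and 31.2% to 98.0% of spots were well above background. By the median the late arrays were brighter, with a 75th percentile of 188.5 against 78.9 early. This held only with the arrays that stand apart: the 5 late ones among them had 188.5 to 3974. The 4 other late arrays had 24.3 to 65.9 and the 8 other early arrays 18.1 to 172.2. The median share of spots well above background was 68.4% late and 49.8% early. On HF20 Week 15 and HF5 Week 12, 71.4% and 18.6% of spots were flagged as nonuniform or as outliers and were left out. HF20 Week 15 thus has no value for 57.8% of the 22188 probes kept, and its highest level was 4.19, against 8.63 to 11.8 on the 12 arrays that do not stand apart. For any gene whose early levels all exceed 4.19, this array had to lie below the early range. The titles of HF5 Week 9, HF20 Week 12, HF5 Week 15 and HF75 Week 15 carry BA or BAT, which no label explains. Across probes these 4 correlated at 0.96 to 0.97 with each other and at 0.65 to 0.85 with the 12 others, and their highest levels were 6.33 to 7.21. HF5 Week 18 was dim, and 14.0% of its measured probes lay at 1 lowest level of -3.15, which is a bound and not a measurement. Fewer probes shared the lowest level on HF20 Week 18 (689 at -4.50) and HF75 Week 18 (475 at -4.47). On HF75 Week 9 391 probes, and on HF20 Week 9 277, shared 1 level close to the lowest. Because 5 of the 6 arrays that stand apart are late, the medians of the lists are given on all 18 arrays and, as values without the 6, on the 12 others (8 early and 4 late). The 4 late arrays left are HF75 Week 12, HF5 Week 18, HF20 Week 18 and HF75 Week 18, and none is of Week 15. Values without the 6 thus set mainly Week 18 against the early weeks, and their tests treat arrays of 1 week as replicates. All late arrays were scanned after all early arrays, so period and scan order cannot be told apart.

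At an adjusted p of 0.05, 0 of 22188 probes (16727 genes) differed between the late and the early arrays by limma. No probe came below an adjusted p of 0.233. Before adjustment 3245 probes had p under 0.05, 2749 lower and 496 higher in the late arrays. By gene, each read from its brightest probe, 12.9% of genes lay below that limit in the lower direction and 2.28% in the higher direction. By direction alone, 69.8% of genes were lower and 30.2% higher. Counts of list genes below are to be read beside these shares of all genes. Without the 6 arrays the shares under the limit were 11.5% lower and 12.7% higher. The median difference of all genes was -0.36, so the whole scale leaned downward, and the median standard error of a probe was 0.47. Without the 6 arrays the median of all genes was -0.22, and 780 probes passed, 647 higher and 133 lower (by gene 3.28% higher and 0.484% lower). On HF5 Week 18, 191 of those 647 probes and 46 of the 133 lower ones were at the lowest level. The 647 were dim, with a median mean level of -2.57 against -0.45 for all probes, and 70 of them were well above background on none of the 8 early arrays. Without the 4 arrays titled BA or BAT alone, 359 probes passed, 287 higher and 72 lower (by gene 1.43% higher and 0.269% lower), while with the title as a term in the fit and without the 2 arrays of many flagged spots 0 passed. No difference below is therefore called as a change on all 18 arrays, and the values are given as measured.

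The list with the largest share of its genes at an unadjusted p under 0.05 was that of the collagen chains, the subunits of the fibres and sheets of the extracellular matrix. Of 16 chains listed 15 passed the filter on dim probes. All 15 were lower in the late arrays, and 14 of the 15 had an unadjusted p under 0.05, where 12.9% of all genes did so in that direction. Their median difference was -1.35, against -0.36 for all genes, and it was -1.02 without the 6 arrays, where 9 of the 15 were under that limit (11.5% of all genes). Fewer cells of a type and less RNA per cell cannot be told apart in such samples.

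Promoter sequence is shown for a pair of these chains, since both are fibrillar chains among the genes with the smallest p. Each is the stretch of 250 bases before the RefSeq gene start in mouse build GRCm38.p6, 5′ to 3′ on the gene's strand, with capitals for the motif CCAAT.
Col3a1, chr1:45311288-45311537, plus strand: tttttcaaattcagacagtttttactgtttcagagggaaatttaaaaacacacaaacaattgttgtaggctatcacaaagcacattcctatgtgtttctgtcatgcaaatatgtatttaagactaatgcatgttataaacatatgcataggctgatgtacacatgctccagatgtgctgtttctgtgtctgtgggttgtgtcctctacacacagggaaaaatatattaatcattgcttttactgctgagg
Col1a2, chr6:4505368-4505617, plus strand: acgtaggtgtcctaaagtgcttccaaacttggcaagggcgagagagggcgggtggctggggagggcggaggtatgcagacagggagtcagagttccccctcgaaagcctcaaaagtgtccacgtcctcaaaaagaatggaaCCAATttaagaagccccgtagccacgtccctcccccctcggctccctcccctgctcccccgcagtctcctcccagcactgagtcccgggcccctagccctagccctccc
The Col1a2 window holds the letters once, 109 bases before the start, and the Col3a1 window does not hold them on either strand. Windows were matched for 12 of the 15 chains, and 5 of these hold CCAAT on either strand, as do 33.8% of all 32851 windows in the table.

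Col1a1, the main chain of type I collagen, ran from 4.10 to 7.15 on the early arrays (median 6.06) and from 2.16 to 5.12 on the late arrays (median 2.92). Of the 9 late arrays, 8 lay below every early array, and HF75 Week 12 was the exception. The log2 difference was -2.45 with a standard error of 0.52 (limma, adjusted p = 0.285), or 5.45-fold lower, and -2.17 without the 6 arrays. Col1a2, the other chain of type I collagen, ran from 5.30 to 8.23 early (median 7.11) and from 3.33 to 5.75 late (median 4.76). Again 8 of 9 late arrays lay below the early range, with HF75 Week 12 inside it, and the difference was -2.20 with a standard error of 0.49, and -1.74 without the 6 arrays. HF20 Week 15, whose highest level of any probe was 4.19, could not have reached that range. Col3a1, the chain of type III collagen, ran from 5.36 to 7.46 early (median 6.39) and from 3.15 to 5.99 late (median 4.28). It showed the same order of arrays, and its difference was -1.96 with a standard error of 0.39 (adjusted p = 0.233), and -1.64 without the 6 arrays. The same limit of HF20 Week 15 applies to Col3a1. Without the 4 arrays titled BA or BAT, Col1a1 (-2.61, adjusted p = 0.0404) and Col3a1 (-2.02, adjusted p = 0.0422) passed the threshold.

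The step between the periods was not sharp for these chains. The mean level of Col1a1 over the doses was 5.89, 7.04 and 4.27 at Weeks 3, 6 and 9 and 3.88, 2.64 and 3.34 at Weeks 12, 15 and 18. Week 6 was thus the highest, and Week 9 lay nearer to the late weeks than to the other early weeks. Col3a1 ran in the same order, with 7.15 at Week 6, 5.46 at Week 9 and 3.84 at Week 15. The probes of a gene differed in size: the 3 probes of Col1a1 ranged from -2.45 to -0.81 and the 2 of Col3a1 from -1.96 to -0.97, all lower.

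**Figure D1:**
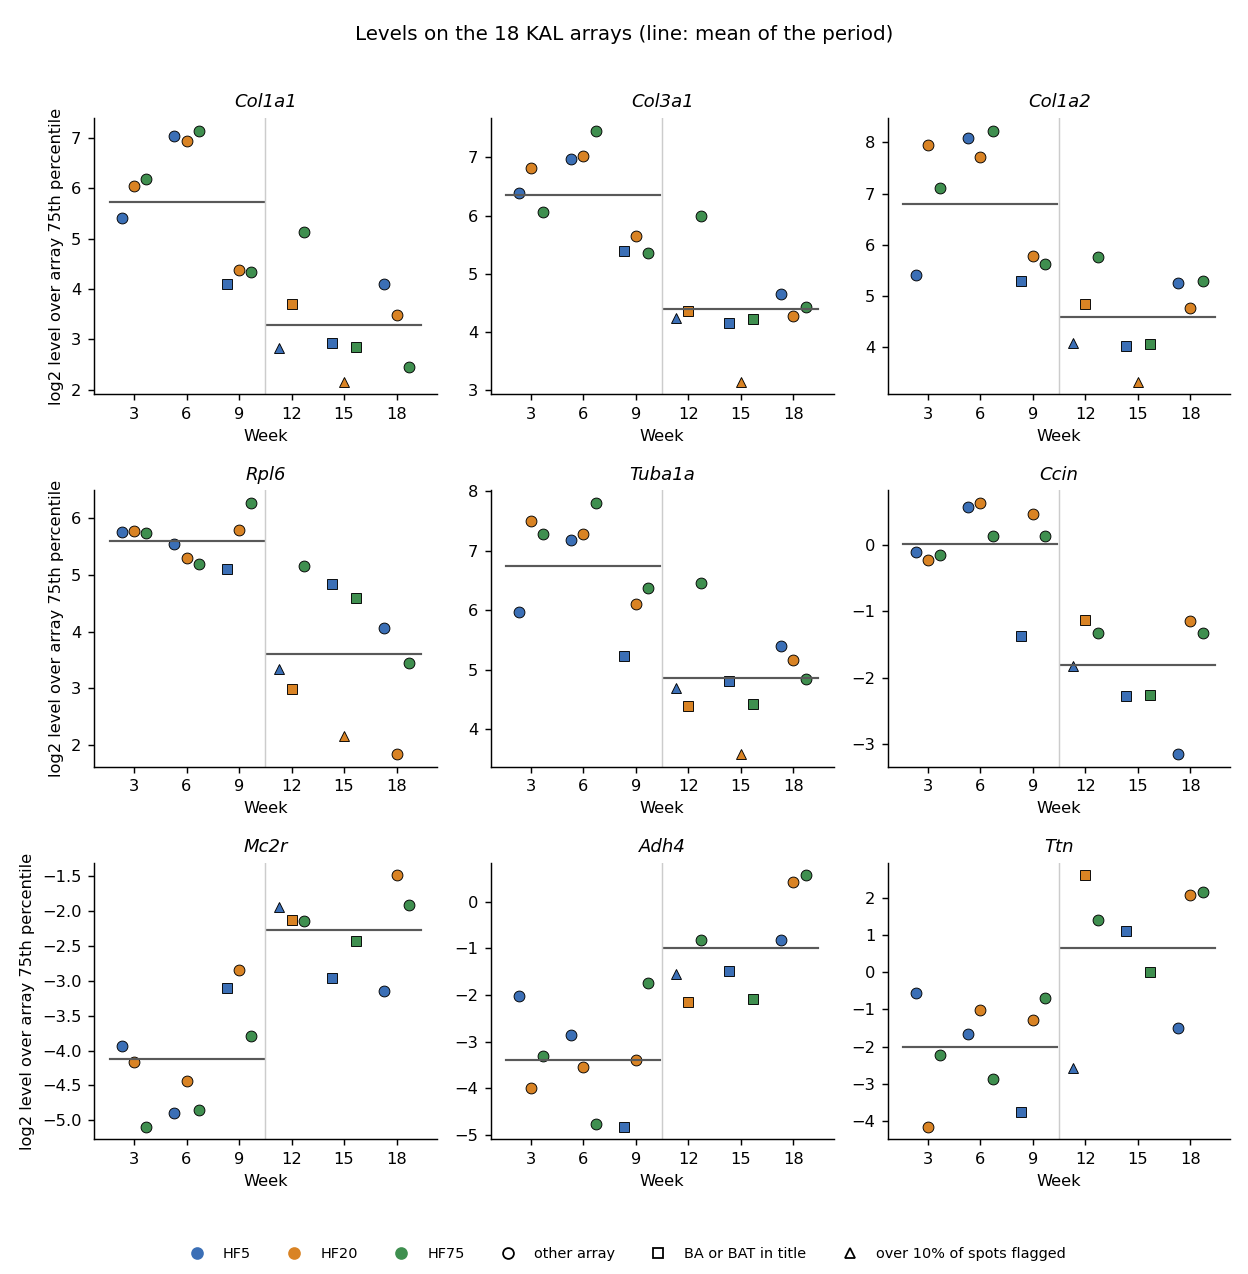
Level (log2 over the array's 75th percentile) of 9 genes on each KAL array against the week; colours are doses, squares are arrays titled BA or BAT, triangles arrays with over 10% of spots flagged, and lines the means of each period. In the collagen panels Week 6 is highest and 8 of 9 late arrays lie below the early range; Mc2r, Adh4 and Ttn lie higher on most late arrays.

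Beyond the chains of types I and III, Col5a1 (-1.46) of type V collagen, and Col15a1 (-1.38) and Col18a1 (-1.77), which belong to basement membrane zones, were lower too. Col6a2 had the smallest difference, -0.58, and turned to 0.19 without the 6 arrays, the only one of the 15 chains to do so.

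**Figure D2:**
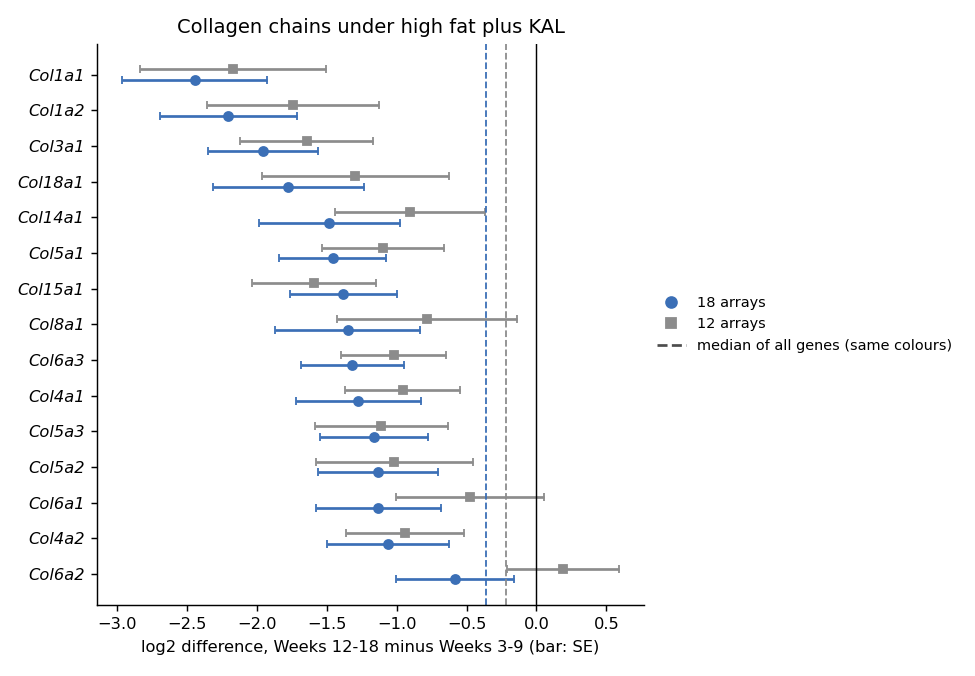
Difference of the late and early arrays for the 15 collagen chains (log2; bars are standard errors), on all 18 arrays and on the 12 that do not stand apart; dashed lines are the medians of all genes. All points lie left of 0 except Col6a2 on the 12 arrays.

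Other stromal groups were lower by less. Of 16 fibroblast and preadipocyte genes, 15 were lower, 9 with an unadjusted p under 0.05, with a median of -0.96. The median without the 6 arrays was -0.34, with 4 lower and 1 higher under the limit. S100a4, a calcium-binding protein of motile mesenchymal cells and leukocytes, ran from 3.51 to 6.83 early and from 2.18 to 5.71 late, with a difference of -1.74. Pi16, a marker of adventitial fibroblasts, ran from 0.12 to 3.17 early and from -1.15 to 1.18 late, with a difference of -1.49 that was -1.45 without the 6 arrays. Both genes overlapped between the periods. Of 17 matrix proteases and their inhibitors, 16 were lower, 7 under that limit, with a median of -1.09. On the 12 others the median was -0.35, with 1 gene lower and 1 higher under the limit, where 11.5% of all genes were lower. Mmp2, a gelatinase, differed by -1.55 and Adamts5, an aggrecanase, by -1.21, while Mmp19, another matrix metalloprotease, was the exception at 1.48, or at -0.36 with another background correction (normexp). Of 15 endothelial genes 14 were lower, 7 under the limit, with a median of -0.89 and of -0.52 without the 6 arrays, where 3 lower and 1 higher were under it. Cldn5, a tight junction protein of vessels, differed by -1.52, and Kdr, the main receptor for vascular endothelial growth factor, by -1.37. None of these passed after adjustment.

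Macrophage markers were the check on the label. Emr1, the mouse macrophage surface receptor used to mark these cells, and Cd68 were well above background on all 9 early and all 9 late arrays, and so were the fat cell genes Ucp1 and Adipoq, so the RNA was not that of macrophages alone. Of 18 macrophage identity genes 17 were lower in the late arrays, 5 with an unadjusted p under 0.05 (27.8%, against 12.9% of all genes), with a median of -0.97. The median was -0.39 without the 6 arrays, where 2 genes were under that limit. The mean level of the list was -0.27 to 2.64 early and -0.98 to 1.09 late. On the arrays titled BA or BAT it was -0.98 to 0.74, and on the 4 late arrays that do not stand apart 0.87 to 1.09, which lies inside the early range. The general adipocyte list moved the other way on these titles, with 5.10 to 5.38 there and 3.35 to 4.53 on the other 4 late arrays. The part of these arrays in the immune results below was not tested beyond the values without them.

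Emr1 ran from 1.21 to 4.15 early (median 2.08) and from -1.42 to 2.29 late (median 0.85). Of the late arrays 5 lay below every early one, and the highest early value came from HF5 Week 3. Its difference was -1.47 with a standard error of 0.46 (limma, adjusted p = 0.285) and -0.92 without the 6 arrays. Laptm5, a lysosomal membrane protein of leukocytes, differed by -1.89 (no value on HF20 Week 15), and this was -1.82 without the 6 arrays. The other 3 under the limit were Ctss, a lysosomal protease of antigen-presenting cells (-1.27), Lyz2, the macrophage lysozyme (-1.0), and Aif1, a calcium-binding protein of macrophages (-1.53). Cd68, a lysosomal glycoprotein, ran from -1.58 to 1.89 early and from -2.40 to 0.83 late, with a difference of -0.84 (adjusted p = 0.449). Mrc1, the mannose receptor of alternatively activated macrophages, ran from 0.08 to 1.99 early and from -0.65 to 1.74 late, and its difference of -0.20 turned to 0.44 without the 6 arrays.

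Signals and receptors of inflammation leaned the same way. Of 19 chemokines and receptors 17 were lower, 8 under the limit, with a median of -1.19 and of -0.59 without the 6 arrays, where 5 lower and 1 higher were under it. Cxcl9 and Cxcl10, which draw T cells and are induced by interferon gamma, differed by -1.53 and -2.0, and Ccr7, the receptor that guides lymphocytes and dendritic cells to lymph nodes, by -3.00. Of 12 inflammatory cytokines and enzymes 9 were lower, with a median of -1.26 and of -0.41 without the 6 arrays. The 3 under the limit were Nfkbia (-1.76) and Tnfaip3 (-2.12), both inhibitors of NF-kappaB that it induces itself, and Casp1 (-1.17), which cleaves interleukin 1. Of 12 genes of alternative activation 10 were lower, with Stab1, a scavenger receptor (-1.14), and Klf4, a transcription factor (-1.41), under the limit. That is 16.7% of the list, near the 12.9% of all genes. The median of the alternative activation list, -0.76, moved to about 0 without the 6 arrays.

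The interferon response leaned one way in full. All 19 genes tested were lower, 12 with an unadjusted p under 0.05, with differences from -1.44 to -0.68 and a median of -1.18. Without the 6 arrays the median was -0.76, and 8 were under the limit. Irf1, a transcription factor of the interferon response, ran from 3.41 to 5.66 early (median 4.57) and from 2.17 to 5.19 late (median 3.14), and 5 late arrays lay below the early range. Its difference was -1.35 with a standard error of 0.39. Igtp, a GTPase induced by interferon gamma, differed by -1.23, Oas1a, a sensor of double-stranded RNA, by -1.43, and Irf7, the main inducer of type I interferon genes, by -1.32. Of 12 genes of MHC class II presentation 11 were lower, 4 under the limit, with a median of -0.99. Without the 6 arrays the median was -0.45, and 0 of the 12 were under the limit. H2-Ab1 and H2-Aa, the chains of the I-A molecule, differed by -1.58 and -1.46, and Cd74, the invariant chain, by -1.37.

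Lymphocyte genes were lower too, and their levels moved with the titles. Of 11 T cell genes 10 were lower, 7 under the limit, with a median of -1.42. The median without the 6 arrays was -0.99, with 2 lower and 1 higher under the limit. The mean level of the list was -4.32 to -3.78 on the arrays titled BA or BAT, -3.78 to 0.60 early and -2.22 to -0.59 on the 4 other late arrays. Lck, the kinase at the T cell receptor, differed by -2.28, Lat, its adaptor, by -2.51, and Thy1, also carried by fibroblasts, by -1.38. Cd3e, a chain of the receptor complex itself, went against the list at 0.89, though at -0.21 with normexp. All 6 NK and cytotoxic genes were lower, 4 under the limit, with a median of -1.99. On the 12 other arrays it was -1.01, with 1 lower and 1 higher under the limit. Gzma, a granule protease of killer cells, ran from -4.03 to 1.09 early and from -5.64 to -0.18 late, with a difference of -2.72, and its lowest early array was HF5 Week 9, titled BAT. Nkg7, another granule protein, differed by -2.07. Of 8 B cell genes 6 were lower, Ms4a1 (CD20, -2.29) and Cd79b, part of the B cell receptor (-1.66), under the limit, with a median of -1.24 and of -0.43 without the 6 arrays.

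**Figure D3:**
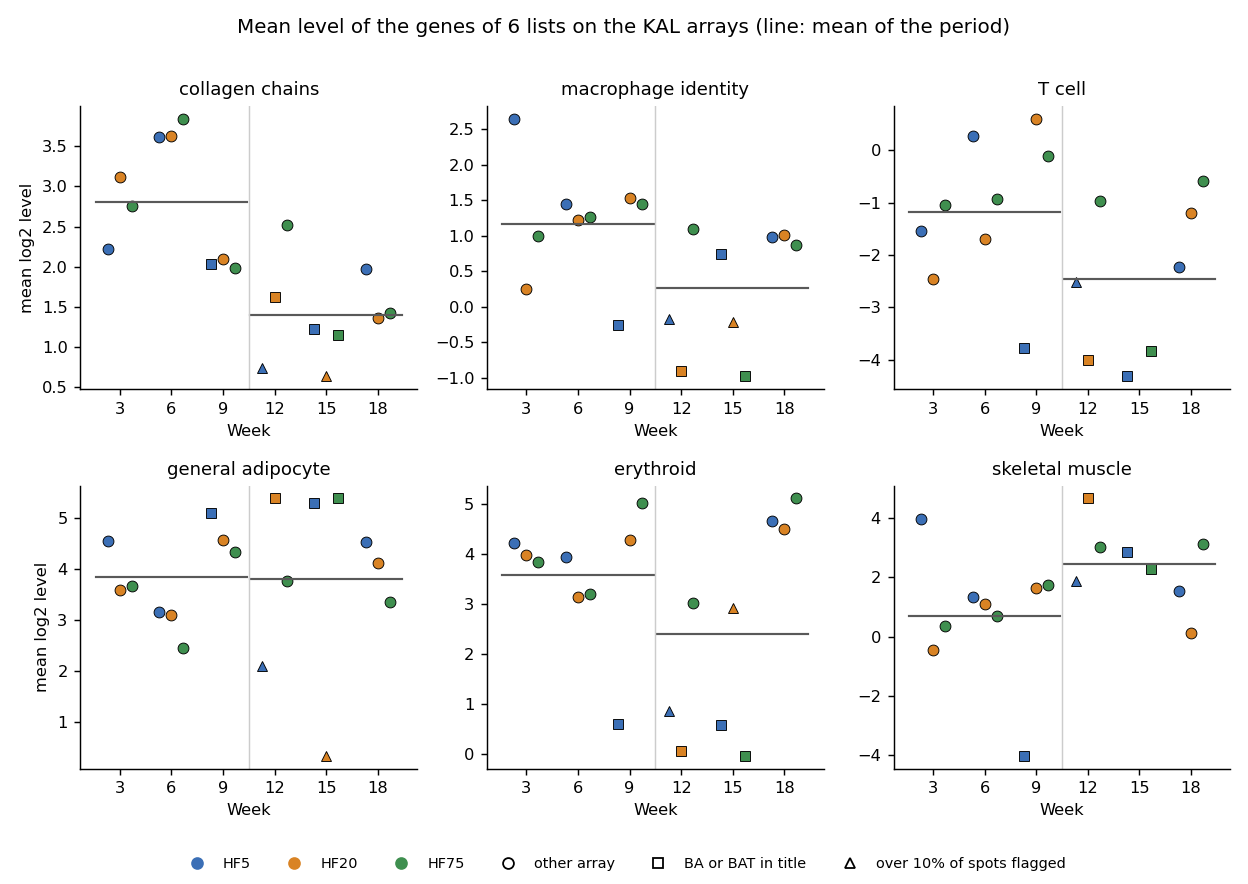
Mean level (log2 over the array's 75th percentile) of the genes of 6 lists on each KAL array against the week, with colours, symbols and lines as in the plot of single genes; HF20 Week 15 has no point where under 50% of a list was measured. The arrays titled BA or BAT lie lowest in the T cell and erythroid panels and highest in the general adipocyte panel.

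The medians of the neutrophil, mast cell and red cell lists were below 0 on all 18 arrays and above 0 without the 6. Of 13 neutrophil genes 9 were lower with a median of -0.22, which was 1.69 without the 6 arrays, where 4 were under the limit and higher (12.7% of all genes). Among the late arrays left there, the mean level of the list was 0.14 on HF75 Week 12. It was 1.39, 2.62 and 1.30 on HF5, HF20 and HF75 of Week 18. Only Ela2, neutrophil elastase, was under the limit on all arrays, and it was at 1.57, or at -0.61 with normexp. It passed without the 6 arrays, at 2.85 (adjusted p = 0.0369). The mean level of Ela2 over the doses was -3.39, -4.04 and -0.89 at Weeks 12, 15 and 18. Of 8 mast cell genes 6 were lower and 0 under the limit, with a median of -0.47 and of 0.24 without the 6 arrays. There Tpsb2, a mast cell tryptase, passed at 2.74 (adjusted p = 0.0319). Over the doses Tpsb2 had means of -1.62, -4.69 and 0.33 at Weeks 12, 15 and 18. Of 6 erythroid genes 5 were lower, with a median of -1.89 and of 0.34 without the 6 arrays. Alas2, the first enzyme of heme synthesis in red cells, ran from 0.54 to 7.18 early and from -0.47 to 8.0 late, with the highest value at HF75 Week 18. Its difference was -2.71, and -0.44 without the 6 arrays. Hba-a1, alpha globin, differed by -2.36 and by 0.05 without the 6 arrays, and Tfrc, the transferrin receptor of many cell types, by 1.6. Of 13 complement genes 10 were lower, 3 under the limit (12.9% of all genes), among them C1qa (-1.09) and C2 (-1.30) of the classical pathway, with a median of -0.60 that turned to 0.22 without the 6 arrays.

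Immediate early genes, which cells switch on within minutes of a stimulus, were all lower: 16 of 16, 9 under the limit, with a median of -1.31. Without the 6 arrays the median was -0.44, and 3 were under the limit. Nr4a1, an orphan nuclear receptor, ran from 5.02 to 8.15 early (median 6.76) and from 2.34 to 6.66 late (median 4.79). Below the early range lay 6 of 9 late arrays, including HF20 Week 15, which had no level above 4.19. The difference of Nr4a1 was -2.20 with a standard error of 0.55. Junb differed by -2.16 and Egr2 by -2.27, both transcription factors. Of 11 heat shock genes 10 were lower, 3 under the limit, with a median of -0.60 and of 0.00 without the 6 arrays. Hspa1a, the inducible Hsp70, differed by -2.51 and by -0.44 without the 6 arrays. Of 20 ER stress genes 16 were lower, with a median of -0.34 and of -0.16 without the 6 arrays, and the pair under the limit went opposite ways: Atf3 by -2.28 and Dnajb9, a chaperone of the ER, by 0.90.

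Among single genes outside these groups, Rpl6, a protein of the large ribosomal subunit, was among those with the smallest p. It ran from 5.10 to 6.26 early (median 5.74) and from 1.85 to 5.16 late (median 3.45). Of 9 late arrays 8 lay below every early array, and HF75 Week 12 lay just inside the range. HF20 Week 15, with no level above 4.19, could only lie below it. The difference was -2.0 with a standard error of 0.38 (limma, adjusted p = 0.233), and without the 6 arrays -2.14 with an adjusted p of 0.0364. The cytosolic ribosomal protein list, which leaves Rpl6 out, was lower in 23 of 24 genes, 10 under the limit, with a median of -0.96 that was -0.18 without the 6 arrays, where 2 were under it. Rplp0, of the ribosomal stalk, differed by -2.23 and Rpl4 by -1.42. Probes of ribosomal protein genes may bind near-identical copies, so these values are uncertain as to the gene. Rplp0 was at 2.22 on HF20 Week 15, whose highest level of any probe was 4.19, and at 6.14 to 6.47 on the arrays titled BA or BAT, whose highest levels were 6.33 to 7.21. Its spot was saturated on 1 early and 2 late arrays. Its difference thus rests in part on values near the highest that these arrays gave, and it was -1.42 without the 6 arrays.

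Tuba1a, an alpha tubulin with close paralogs, ran from 5.24 to 7.80 early (median 7.18) and from 3.58 to 6.46 late (median 4.81). Below the early range lay 7 of 9 late arrays, including HF20 Week 15, which had no level above 4.19. The difference of Tuba1a was -1.88 with a standard error of 0.40, and it passed without the arrays titled BA or BAT (-1.89, adjusted p = 0.047). Ccin, calicin, a protein of the sperm head skeleton, ran from -1.38 to 0.63 early (median 0.13) and from -3.15 to -1.14 on 8 late arrays (median -1.58), with no value on HF20 Week 15. HF5 Week 9 was the lowest early array. The difference was -1.77 (adjusted p = 0.233), and without the 6 arrays -1.90 (adjusted p = 0.0323). Its lowest late value is the bound of HF5 Week 18.

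Of the 6 genes with the smallest p that were higher in the late arrays, 5 were well above background on at most 3 of 9 early arrays. These 5 passed the filter on dim probes mainly through the late arrays. Over all 18 arrays the late ones had more spots well above background (median 68.4%, against 49.8% early), so such counts are no measure of a rise. The 4 late arrays that do not stand apart had 31.2% to 50.5%, and the 8 such early arrays 35.7% to 57.7%. Mc2r, the receptor for corticotropin, ran from -5.09 to -2.84 early (median -4.16) and from -3.15 to -1.49 on 8 late arrays (median -2.13), where HF5 Week 18 is at its bound and HF20 Week 15 has no value. It was well above background on 1 of 9 early and 8 of 9 late arrays, and 6 late arrays lay above every early one. The difference was 1.90 with a standard error of 0.37 (limma, adjusted p = 0.233) and 2.16 without the 6 arrays (adjusted p = 0.0319), but it was -0.44 with normexp, so its direction is not settled. Slc39a8, a zinc and manganese importer, was at 1.26 and likewise turned to -0.59 with normexp, while without the 6 arrays it passed at 1.49 (adjusted p = 0.0323). Adh4, an alcohol dehydrogenase that acts on retinol, ran from -4.83 to -1.75 early (median -3.40) and from -2.14 to 0.56 on 8 late arrays (median -1.16). It was well above background on 1 early array and on all 9 late arrays. Its difference was 2.39 with a standard error of 0.53, and 3.03 without the 6 arrays (adjusted p = 0.0319), while normexp took it to just under 0.

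Muscle genes were the one list in which all members leaned upward. All 20 skeletal muscle genes tested were higher, 3 with an unadjusted p under 0.05 (2.28% of all genes), with a median of 1.5 that was 0.51 without the 6 arrays and 0.06 without the 4 titled BA or BAT alone. The mean level of the list ran from -4.03 (HF5 Week 9) to 3.96 early and from 0.12 to 4.66 late, so the periods overlapped widely. Ttn, titin, the spring of the sarcomere, ran from -4.14 to -0.55 early (median -1.66) and from -2.57 to 2.60 on 8 late arrays (median 1.26), and 6 late arrays lay above every early one. Its difference was 2.75 with a standard error of 0.69 (adjusted p = 0.285), and its 5 probes ranged from -0.55 to 2.75. Myh7 and Myh1, the heavy myosin chains of slow and fast fibres, differed by 2.49 and 2.16, and by 0.89 and 0.60 without the 6 arrays. Itgb1bp2, melusin, a muscle protein that binds integrin, differed by 2.35, and Ankrd5, an ankyrin repeat protein, by 2.20 on 16 arrays. Brown fat lies against muscle, and how much muscle each sample held was not tested beyond this list.

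Genes of the fat cell itself differed little in comparison with their spread. Ucp1 ran from 5.71 to 8.82 early (median 6.80) and from 1.48 to 7.47 late (median 6.41), with HF20 Week 15 the lowest by far. Its difference was -1.32 with a standard error of 0.68 (limma, adjusted p = 0.363) and -0.45 without the 6 arrays. The spot was saturated on 1 early and 3 late arrays, and a dimmer probe of Ucp1 gave 0.25. Of 20 genes of brown fat thermogenesis 8 were lower and 12 higher, 0 under the limit, with a median of 0.48. That median was -0.42 without the arrays titled BA or BAT, 0.94 without the 2 arrays of many flagged spots and 0.01 without all 6. Elovl3, a fatty acid elongase induced by cold, differed by 1.72. Adipoq, the hormone adiponectin, ran from 2.23 to 6.12 early and from 1.12 to 6.47 late, and its difference of 0.33 turned to -0.35 without the arrays titled BA or BAT. Of 17 general adipocyte genes 8 were lower and 9 higher, with a median of 0.02. It was -0.56, 0.79 and 0.25 with the same arrays left out, in the same order, so neither list had a settled direction.

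Of the lipid lists, sterol synthesis lay below all genes and lipogenesis near them. Of 17 sterol genes 14 were lower, with a median of -0.71, and here the median moved further from 0 without the 6 arrays, to -0.89, where 6 were under the limit. It was -0.34 without the 2 arrays of many flagged spots. On all arrays 3 were under the limit, among them Sc4mol, a sterol oxidase (-1.37, and -1.56 without the 6 arrays), and Srebf2, the transcription factor of sterol synthesis (-1.15 and -1.58). Of 14 lipogenesis genes 11 were lower, with Fasn, fatty acid synthase (-1.39), and Scd2, a desaturase (-1.37), under the limit (12.9% of all genes). The lipogenesis median was -0.32, or -0.23 without the 6 arrays, and it turned to 0.34 without the 2 arrays of many flagged spots. Scd1, the main desaturase of fat, ran from 2.72 to 5.89 early and from -0.02 to 6.55 late, and its difference of -0.08 had no stable sign. Of 20 fatty acid oxidation genes 14 were lower with a median of -0.37, near that of all genes, and of about 0 without the 6 arrays. Acot2, a mitochondrial thioesterase, was at 1.34. Of 21 respiratory chain genes 19 were lower with a median of -0.61, and of -0.19 without the 6 arrays. Atp5b, a subunit of ATP synthase, was the one under the limit (-1.30).

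The remaining lists were described in the same way. Of 18 cell cycle genes 17 were lower, 6 under the limit, with a median of -0.76 and of -0.39 without the 6 arrays. Mcm5, of the replication helicase, differed by -1.47 and Aurka, a mitotic kinase, by -1.32. Aurka passed without the arrays titled BA or BAT (-1.93, adjusted p = 0.0484) and without the 6 arrays (adjusted p = 0.0434). Of 12 circadian clock genes 7 were lower, with Hlf, a clock output factor, higher by 1.55 on 16 arrays and Per1 (-1.09) and Arntl (-1.44), of opposite arms of the clock, lower. The median was -0.32, and -0.26 without the 6 arrays. No label gives the hour of sampling. Of 18 genes of insulin signalling and glucose uptake 13 were lower, near the share of all genes (69.8%), with Igf1r, the IGF1 receptor, at -1.42 and Tbc1d4, which holds back glucose transporters, at 1.2. Tbc1d4 passed without the 6 arrays, at 2.04 (adjusted p = 0.0434). The median of that list was -0.46, and -0.15 without the 6 arrays. Of 17 antioxidant and metallothionein genes 13 were lower with a median of -0.26 and of -0.09 without the 6 arrays, and Mt3 was the one under the limit (-0.78). All 4 mesothelial genes were lower, 0 under the limit, with a median of -1.46 and of -0.10 without the 6 arrays, and Krt19, a keratin, differed by -1.69. Of the 3 sex-linked genes tested 2 were lower and 0 under the limit, with a median of -0.25 and of -0.07 without the 6 arrays.

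**Figure D4:**
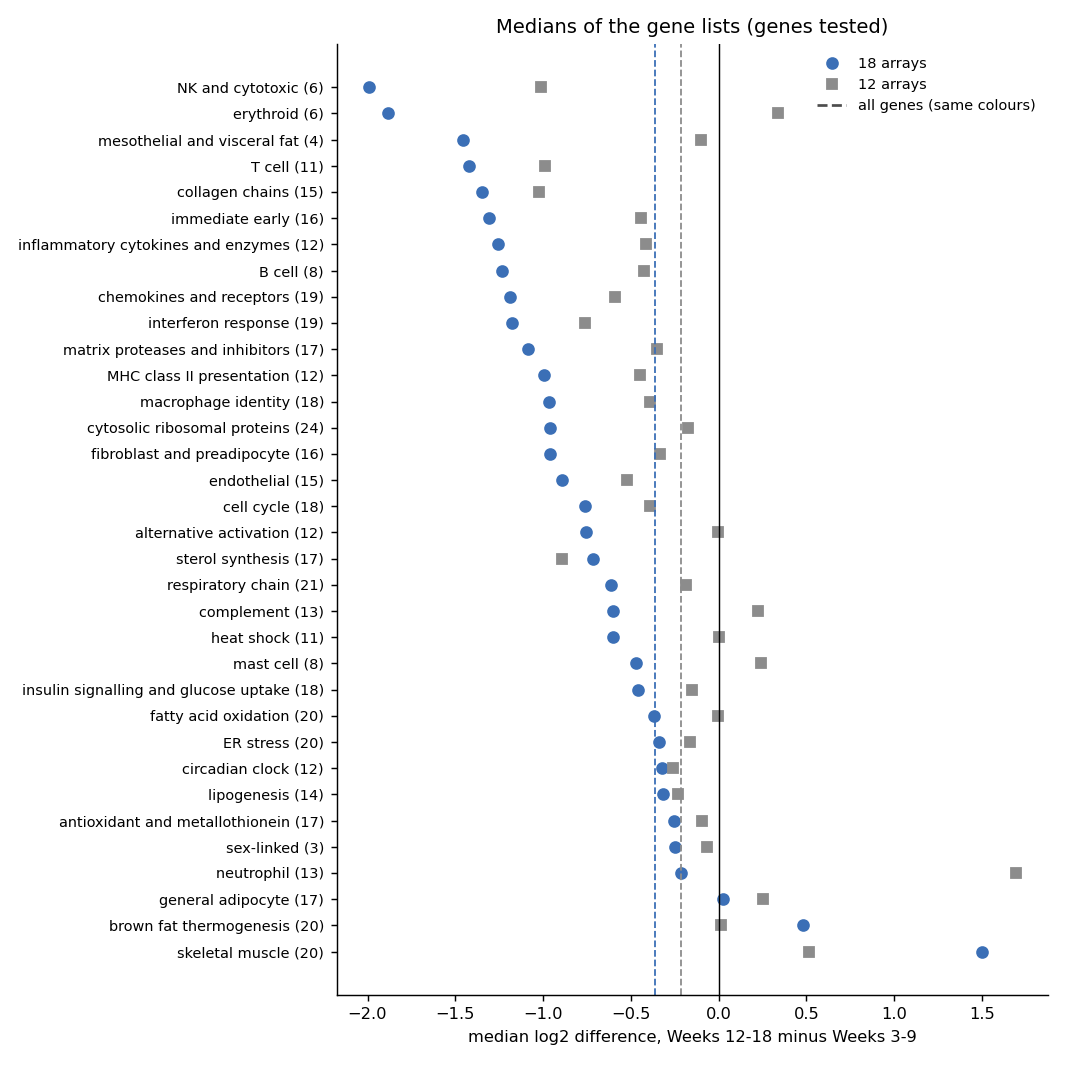
Median difference of the late and early arrays (log2) for 34 gene lists, on all 18 arrays and on the 12 that do not stand apart, with the number of genes tested in brackets; dashed lines are the medians of all genes. On the 12 arrays most medians lie nearer 0, while collagen chains stay at -1.02 and sterol synthesis at -0.89.

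In 13 probes every late array with a value lay below every early array (0.0586% of probes), and in 2 every late array lay above (0.00901%). These probes were picked by their values, so they are a description. Among the lower were probes of H2-D1 and H2-T23, MHC class I molecules, with 4.95 to 5.87 early against 0.94 to 4.90 late and 5.03 to 6.01 against 1.78 to 5.02. Eef1a1, the elongation factor that brings tRNA to the ribosome, had 5.33 to 6.14 against 1.13 to 5.21, and Sertad1, a cofactor of cell cycle kinases, had -0.21 to 1.34 against -1.68 to -0.38 on 8 late arrays. For H2-D1, H2-T23 and Eef1a1, HF20 Week 15 had to lie below, since its highest level of any probe was 4.19. The pair of higher probes were Cyp2d9, a cytochrome P450, with -1.28 to 0.04 against 0.26 to 1.18 on 7 late arrays, and 1810014B01Rik.

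A slope per week in place of the periods called 1 probe, 1810014B01Rik, an unnamed transcript. Its slope was 0.23 per week with a standard error of 0.03 (limma, adjusted p = 0.026, on 17 arrays). With the week as a random block 0 probes passed (smallest adjusted p = 0.147), as without any 1 of Weeks 3, 6, 9, 12 or 15. Without Week 18, 1002 passed, 67 higher and 935 lower. Most slope calls were instead higher without the arrays titled BA or BAT (457 of 516) and without the 6 arrays (887 of 1177). The probe of 1810014B01Rik ran from -4.91 to -2.77 early and from -2.47 to -0.29 on 8 late arrays. It was well above background on 1 early and 8 late arrays, so it passed the filter mainly through the late arrays.

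The 3 doses were then set apart. At each dose 0 probes passed, with 306, 1915 and 596 at an unadjusted p under 0.05 for HF5, HF20 and HF75. The median difference of all probes was -0.41, -0.49 and -0.14. A test of whether the doses differed in their change called 0 probes, with 154 at an unadjusted p under 0.05. Collagen chains had medians of -1.36, -1.81 and -1.0, and Col1a1 differed by -2.24, -2.68 and -2.41, so it was lower at each dose. Rpl6 differed by -1.38, -3.28 and -1.33. HF20 holds Week 15, the array with most flagged spots, and each dose has at least 1 array titled BA or BAT.

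Whether the change with time was particular to the diet with KAL was asked through the difference of changes, first against HFC. By limma 0 probes passed, the smallest adjusted p was 0.172, and 3484 probes had an unadjusted p under 0.05. The change under KAL shares no array with that under HFC, but HFC has only 3 early and 3 late arrays, its Week 9 array is titled BAT, and 11.1% of spots were flagged on its Week 12 array. That Week 12 array had Ucp1 at -3.18. Laptm5 had the smallest p: it differed by -1.89 under KAL and by 3.71 under HFC, a difference of changes of -5.60 with a standard error of 1.01 (adjusted p = 0.172). Npl, an enzyme that splits sialic acid, had a difference of changes of -3.72 and Abca9, a lipid transporter, of -2.95, both with an adjusted p of 0.191.

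Immune and stromal lists had medians of opposite sign under KAL and HFC. The macrophage identity list had a median of -0.97 under KAL and of 1.71 under HFC, and its median difference of changes was -2.63, with 13 of 18 genes lower at an unadjusted p under 0.05 (13.2% of all genes, with 2.73% higher). Without the arrays that stand apart (6 KAL and 2 HFC arrays) the median was -1.30 and 3 genes were lower under the limit, as were 863 of all 16727 genes. Collagen chains had -1.35 and 0.88, with a median difference of changes of -2.28 that was -1.66 without these arrays. Immediate early genes had -1.31 and 2.02, and skeletal muscle genes 1.5 and -2.65. All genes had a median difference of changes of -0.42, and of -0.21 without these arrays. Leaving them out moved some immune lists close to or past 0: complement from -1.71 to -0.07, alternative activation from -2.57 to -0.57 and mast cell genes from -1.37 to 0.27. Others stayed further off, with chemokines and receptors moving from -3.71 to -2.35 and B cell genes from -3.49 to -2.15.

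Against LFC, of which 2 early and 3 late arrays were used, 0 probes passed as well, the smallest adjusted p was 0.841, and 482 probes had an unadjusted p under 0.05. The LFC arrays of Week 12 and Week 18 carry BA in the title. With all these arrays the lists mostly leaned the same way: collagen chains had a median of -1.38 under LFC, macrophage identity of -1.34 and immediate early genes of -2.13. Their median differences of changes were -0.12, 0.29 and 0.73, in the same order. Without the arrays that stand apart (6 KAL and 2 LFC arrays) they were 0.06, 1.01 and -1.25, with Week 15 the only late LFC array left. Adh4 had the smallest p, with a difference of changes of 4.09 and a standard error of 1.08 (adjusted p = 0.841). Btbd9, a BTB domain protein, whose own late minus early difference passed without the 6 KAL arrays (-1.96, adjusted p = 0.0427), had -3.27 and Pdcd7, a splicing protein, -2.47.

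**Figure D5:**
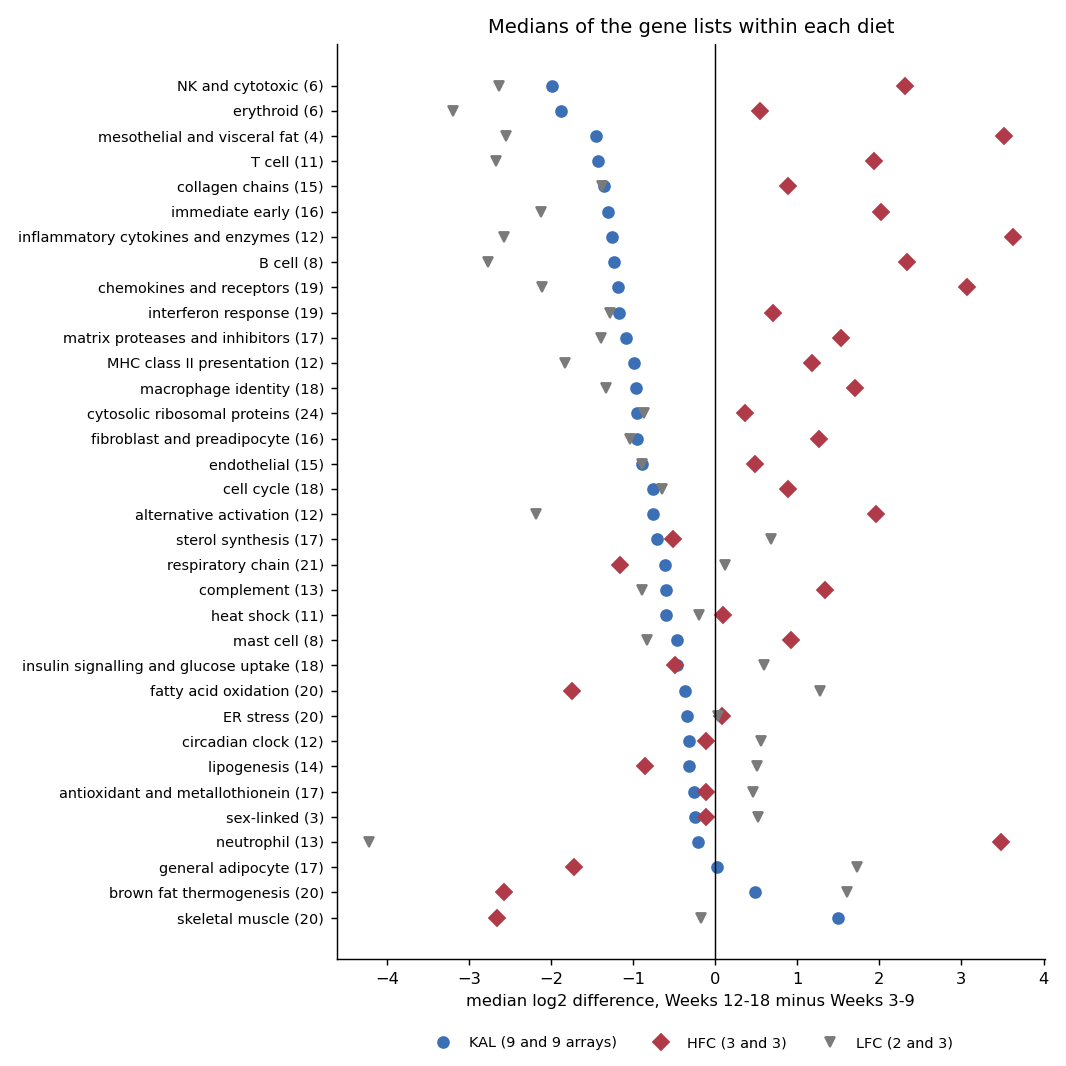
Median difference of the late and early arrays (log2) for each of 34 gene lists within KAL, HFC and LFC, with the number of genes tested in brackets and the number of early and late arrays in the legend. The HFC medians of immune and stromal lists lie right of 0 and those of KAL and LFC left of it; these medians carry no error bars and the differences between diets did not pass the test by gene.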

How the data were processed

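RNA of 18 KAL, 6 HFC and 5 LFC arrays (1 colour, Cy3) was compared, with groups taken from the labels. The deposited scanner files give the intensity of each spot, from which Agilent Feature Extraction had subtracted the background (version 10.5.1.1 and protocol GE1_105_Dec08 per the file headers, version 9.1 per the submitters' processing notes). The arrays had not been scaled to each other. A series table in which the authors set each array against the LFC array of its time, as log2 differences, was not used. The 43803 spots other than controls gave 40628 probes and 29411 symbols, which can be old. Processed signals were taken as log2, the array's 75th percentile was subtracted, flagged spots were left out and spots of a probe averaged. A probe was kept (22188 in all) if 9 or more of the 18 arrays had it well above background and 6 or more of each period measured it. Arrays have no read depth, and their number limits the precision.

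Tests were two-sided and used limma 3.58.1 (R 4.3.3), with Benjamini-Hochberg adjustment over all probes kept and a threshold of 0.05. The methods' t-test is an alternative, since each diet and week has 1 array here. In data simulated at this spread, late minus early recovered 0%, 48%, 98% and 100% of log2 changes of 1, 2, 4 and 6 (50 probes each), with 11 false calls. The simulated noise was independent between probes and arrays. It lacks the shared structure of the arrays that stand apart, so these figures need not hold for the real arrays. A gene was read from its brightest probe. Named genes were up to 12 per direction past the threshold with the same direction at each dose, filled to 6 by smallest p where fewer passed; up to 3 of each list by smallest p; the 3 of smallest p per difference of changes; and Ucp1, Scd1, Adipoq, Emr1, Cd68, Mrc1 and Xist (which did not pass the filter). Other list members are given where a count is small or the list is described. The values of 1 gene are not reported here. The comparison and the 34 gene lists were chosen with earlier results of these data known. Random blocks of week, scan date and slide used statmod 1.5.0. Promoter windows came from a RefSeq table (GRCm38.p6).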

Additional observations from a re-analysis of the deposited data

Results flagged for a closer look

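Sets of up to 9 values (a gene, a list mean or an array measure in 1 period) were searched for a lowest or highest array set off from the others by Dixon's criterion. Of 260 sets, 27 met it, where chance gives about 1 in 20. HF5 Week 9, the early array titled BAT, accounted for 20 of them. Its 75th percentile was 1076 intensity units. Its levels were set off for Aif1 (0.78), Alas2 (0.54), Casp1 (-0.75), Ccin (-1.38), Ctss (2.60), Junb (2.22), Laptm5 (-2.15), Lat (-3.81), Mt3 (-1.56), Myh1 (-4.99), Rplp0 (6.24) and S100a4 (3.51), each the lowest of the early arrays, and for Tfrc (0.90), the highest. Among list means it was the lowest for alternative activation (0.40), chemokines and receptors (-2.37), erythroid genes (0.60), immediate early genes (0.42), inflammatory cytokines and enzymes (-3.13) and matrix proteases and inhibitors (-0.067). HF20 Week 15 was set off by its 75th percentile (3974 intensity units), its share of flagged spots (71.4%), Rplp0 (2.22) and Ucp1 (1.48). HF5 Week 3 was the highest early array for Aurka (-0.19) and for the antioxidant and metallothionein list (3.54). HF5 Week 12 was the lowest late array for Mcm5 (-5.38), among 8 with a value.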

How the results depend on the processing

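Late minus early was recomputed under 45 alternatives, and 42 gave 0 probes. The methods' t-test, with the weeks as replicates, gave 2. Without the arrays titled BA or BAT 359 passed and without the 6 arrays that stand apart 780, with 307 shared, and the cause was not tested. Leaving out each array, week or dose gave 0. The settings without the 6 arrays and with the title as a term were chosen after seeing the data. By dose, quantile normalization gave 1 probe for HF5 and the others kept 0. The differences of changes kept 0 under every alternative run. The slope called 2 with quantile normalization, 0 with a filter of 6 of all 39 arrays and 0 with the week as a random block. It called 516 without the arrays titled BA or BAT (457 higher, 59 lower) and 1177 without the 6 arrays (887 higher, 290 lower). Leaving out 1 week gave 0 to 1002 (1002 without Week 18, 67 higher and 935 lower). No paired analysis was possible because the labels give no replicate numbers. Each week lies within 1 period, so the week as a random block (correlation 0.11) pairs no late array with an early one. It allows for likeness between arrays of the same week, and it gave 0 calls. Among lists, without the 6 arrays the medians were -0.0011 for alternative activation, 0.22 for complement, 0.34 for erythroid genes and -0.35 for matrix proteases. With the title as a term they were 0.25 for erythroid genes and -0.35 for matrix proteases. Leaving out 1 week at a time, the erythroid median ranged from -3.66 (without Week 18) to -0.85 (without Week 15). Lists were not rerun without single arrays or doses. Without the arrays of over 10% flagged spots the median of all genes was -0.072. The other 517 values of lists moved by less than the spread. Of single genes, normexp turned Mc2r (-0.44), Adh4 (-0.00036), Slc39a8 (-0.59), Cd3e (-0.21), Ela2 (-0.61), Mmp19 (-0.36) and Scd1 (0.89). Scd1 also turned with quantile normalization (0.021), array weights (0.47), without the arrays of over 10% flagged spots (0.82), without the 6 arrays (0.088), with the title as a term (0.078) and, leaving out 1 array, week or dose, ranged from -0.86 to 0.46. Adipoq turned without the arrays titled BA or BAT (-0.35), and leaving out 1 array, week or dose it ranged from -0.35 (without Week 6) to 0.84. Mrc1 turned with array weights (0.15), without the titled arrays (0.098), without the 6 arrays (0.44), and with the title as a term (0.39), and leaving out 1 array, week or dose it ranged from -0.73 to 0.21 (without Week 12). Without the 6 arrays Col6a2 (0.19) and Hba-a1 (0.052) turned. Signal over background limits the dim genes: on HF5 Week 18 31.2% of spots were well above it.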
